A study of Mus musculus with 53 samples.

Results

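Malat1, Neat1 and Tug1 are 3 long non-coding RNAs (lncRNAs) of the nucleus, and their levels were followed cell by cell in mouse blood stem cells and their embryonic precursors. They were chosen by name, though with earlier results of these data known. Both deposited expression tables list all of them: 3 of the 6910 rows of the adult table and 3 of the 14833 rows of the embryonic table. The series has 53 samples, of which 48 are single-cell RNA libraries. The other 5 are methylation libraries and were not analysed here. Cells were sorted, misshapen ones were set aside, and the others were lysed singly with spike-in RNA.

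The adult cells were haematopoietic stem cells (HSCs) from the bone marrow of C57 mice with the genotype label wildtype, 26 in number. The embryonic cells were T1 pre-HSCs, an early type of HSC precursor, from the aorta-gonad-mesonephros region at embryonic day 11. Of these, 12 cells (numbers 1 to 12) carried the genotype label mH19 delta_DMR/+, a deletion of the differentially methylated region (DMR) of H19, and are called KO. The other 10 (numbers 13 to 22) carried mH19 flDMR/+, where fl usually stands for floxed, and are called wildtype as in their sample names. The labels name neither a Cre line, an age of the adult mice, nor the animal, embryo, litter or sort of any cell, so each group counted as 1 sample and differences between genotypes have no test. Spreads are SDs or ranges over cells. Intervals on shares of cells are exact Clopper-Pearson 95% intervals that cover counting error only.

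Malat1 is a very abundant RNA of nuclear speckles, the bodies that store splicing factors. Neat1 is the scaffold of paraspeckles, bodies built on its long form, and it is induced in many cells by stress and by p53. Tug1 is found in the nucleus and the cytoplasm and has been reported to bind Polycomb proteins. Malat1 and the long form of Neat1 end in a triple helix left by RNase P, which also frees a small tRNA-like RNA, and the short form of Neat1 ends in a poly(A) tail.

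The 3 genes lie at 2 places in the genome. In the deposited adult table, on build mm10, Malat1 spans chr19:5795690-5802672 (6983 bases) and Neat1 spans chr19:5824708-5845478 (20771 bases), with 22035 bases between them. Tug1 spans chr11:3639785-3649673 (9889 bases). The RefSeq table for GRCm38.p6, the patch release of the same build, puts the upper end of Tug1 at 3648814 and the lower end of its neighbour Morc2a at 3649189, so 485 bases of the deposited Tug1 span lie inside Morc2a. RefSeq also places mascRNA (listed as Mascrna), the tRNA-like RNA cut from the 3′ end of Malat1, at chr19:5795924-5795981 (58 bases). The deposited tables have a further gene inside Malat1: RP24-458F14.4, at chr19:5801941-5802393, covers 453 bases or 6.49% of the Malat1 span, near its 5′ end. Whether reads were counted by strand is not given in the sources used here, so reads of Malat1 and of this gene, or of Tug1 and Morc2a, cannot be told apart where the spans overlap.

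The RefSeq promoter windows on GRCm38.p6, from 250 bases before to 50 bases after the start, show how differently the loci begin. Both lie on the minus strand and are printed 5′ to 3′, with motif matches in capitals. The first is Malat1 (chr19:5802623-5802922) and the second Tug1 (chr11:3648765-3649064).
Malat1: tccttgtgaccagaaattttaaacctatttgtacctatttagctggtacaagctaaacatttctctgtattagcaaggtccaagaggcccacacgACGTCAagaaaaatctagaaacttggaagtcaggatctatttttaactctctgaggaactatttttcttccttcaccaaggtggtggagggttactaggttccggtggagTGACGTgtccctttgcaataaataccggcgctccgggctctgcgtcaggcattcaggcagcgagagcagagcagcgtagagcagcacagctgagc
Tug1: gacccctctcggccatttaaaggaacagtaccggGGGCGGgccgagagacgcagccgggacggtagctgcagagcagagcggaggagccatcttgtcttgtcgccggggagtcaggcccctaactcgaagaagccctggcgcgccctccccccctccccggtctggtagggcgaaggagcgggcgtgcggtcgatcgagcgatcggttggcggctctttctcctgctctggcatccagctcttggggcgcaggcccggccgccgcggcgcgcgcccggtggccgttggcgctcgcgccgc
The Malat1 window was 47.0% G and C with 10 CpG dinucleotides, and the Tug1 window was 71.3% with 37. Over all 32851 windows of the table the medians were 52.7% and 7. In Malat1 the capitals mark 2 matches to TGACGT, a core of the cAMP response element, 1 on each strand; 7.51% of all windows hold this motif. In Tug1 they mark 1 match to GGGCGG, the GC box, which 35.7% of windows hold. The letters TATAAA (13.6% of windows), CCAAT (37.4%), CGGAAG (16.9%) and CACGTG (7.15%) were searched for on both strands too and are in neither window. No motif searched overlaps another within these windows. The motifs were chosen after the sequences were seen, and a match describes the letters only.

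Several columns needed care before any value was read. Among the adult columns, 2 carry cell number 16 and neither was used, which leaves 25 cells. Adult cells 23 and 24 share 88 identical values among the 350 rows above 0 in both (25.1%), while the other 299 of 300 pairs of cells share at most 1. None of the 3 lncRNAs had the same value in both cells, and the adult levels, shares, pairs, order, most similar rows and overlap are also given without them. The counts for other lncRNAs use all 25 cells. In the T1 table the column of wildtype cell 19 is out of step with the gene names: around Malat1, Neat1 and Tug1 it matched the other cells best when shifted by 1, 2 and 1 rows, against 0 in the other 21 cells. That cell was left out, leaving 12 KO and 9 wildtype cells. The number of listed genes at 1 or more ranged from 384 to 761 per adult cell, from 1517 to 8408 per KO cell and from 2067 to 5716 per wildtype cell. Read depth is unknown for both tables.

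The T1 labels were checked against H19 and cell type markers. H19, whose DMR carries the deletion, had a median of 28.1 RPKM in KO and 477 in wildtype cells. Procr, a receptor of early HSCs, was detected, at 1 RPKM or above, in 9 KO cells of 12 and in 8 wildtype cells of 9, and Cdh5, the endothelial cadherin, in 7 and 7. Of 10 compared markers of pre-HSCs and haemogenic cells, 4 were lower in KO cells by 1 or more on the log2 scale and 0 higher. Over all 3867 genes compared, 28.0% were lower by that size and 11.4% higher. The 4 markers were the blood transcription factors Runx1 (-2.70), Gfi1 (-2.57, detected in 0 KO and 7 wildtype cells), Gata2 (-1.97) and Tal1 (-1.86), named after their values were seen. All 4 stand in a block of rows ahead of the table's alphabetical order, which the check of row shifts around the 3 lncRNAs did not cover, and the part of these markers in the comparisons below was not tested. Ptprc, the pan-leukocyte antigen that marks later precursors, was found in 1 and 1. Of 9 mesenchymal and 7 erythroid markers listed, none reached the filter used for the comparison below, but single cells did hold some of them. The summed mesenchymal markers reached 1010 RPKM in a KO cell and 254 in a wildtype cell, and the erythroid sum reached 148 and 239. Only 1 mesenchymal marker, Pdgfra, was below 1 in every cell. Of 5 listed macrophage and myeloid markers, 1 reached that filter. It was Lyz2, detected in 6 of 12 KO cells and 6 of 9 wildtype cells (difference -1.92). C1qb of that list was below 1 in every cell. Of 4 listed megakaryocyte markers, 1 reached the filter. It was Vwf, detected in 11 and 7 (difference -0.74), while Pf4 was below 1 in every cell. The adult table lists none of the marker genes of any cell type, so its label was not checked.

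Malat1 was found in most adult HSCs, and at levels that placed it among the highest rows of the table. The adult file does not name its unit; it was read as FPKM, fragments per kilobase scaled to the mapped fragments of the cell, and a value of 1 or more was called detected. Malat1 ran from 0 in cells 10, 14 and 25 through a median of 61.0 to 213 in cell 9, with 205 in cell 22. Apart from the 3 cells at 0 the lowest value was 2.51, in cell 8. It was thus detected in 22 of 25 cells (88.0%, interval 68.8 to 97.5%), with a mean log2(value + 1) of 5.34 ± 2.36 (SD, n = 25 cells). It ranked between place 4 and place 413 in the cells where it was above 0. In a cell at 0 it shared its place with all other rows at 0, as at 730 in cell 14. The median place of Malat1 over all 25 cells was 36, and it made up at most 2.38% of the summed values of a cell's listed rows.

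Tug1 came next, with a sharper division between cells that had it and cells that did not. It was at 0 in 4 cells (5, 15, 22 and 25) and between 0 and 1 in 3 more, of which the highest was 0.258 in cell 8. The next value up was 6.38, in cell 23, and the highest was 269, in cell 7. The median was 38.3. Tug1 was therefore detected in 18 of 25 cells (72.0%, interval 50.6 to 87.9%), and no cell lay between 0.258 and 6.38.

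Neat1 was spread without such a division. It was at 0 in 5 cells (1, 3, 7, 21 and 23) and reached 0.907 in cell 5, 1.52 in cell 8, 4.26 in cell 20 and 7.91 in cell 17. Its median was 26.3 and its highest value 240, in cell 14, which had no Malat1. Detection was 19 of 25 cells (76.0%, interval 54.9 to 90.6%). The mean log2 levels were 4.11 ± 2.73 for Tug1 and 3.87 ± 2.52 for Neat1 (SD, n = 25). The intervals of the 3 shares overlap, and the gaps between the mean levels are smaller than the SD over cells.

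**Figure D1:**
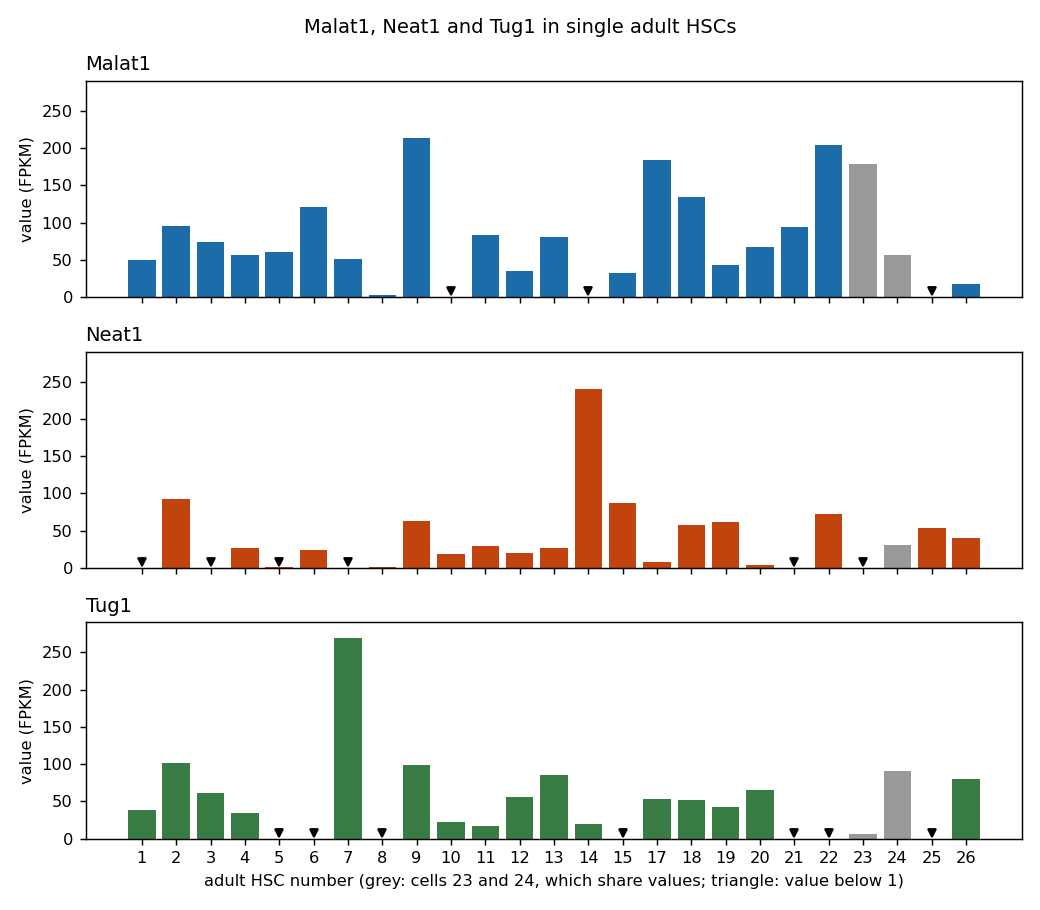
Values of Malat1 (top), Neat1 (middle) and Tug1 (bottom) in each of 25 adult HSCs, in FPKM as deposited, 1 bar per cell on a linear axis from 0; triangles mark values below 1 and grey bars are cells 23 and 24. The highest cell differs between the panels: cell 9 for Malat1 (213), cell 14 for Neat1 (240) and cell 7 for Tug1 (269).

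Every adult cell had at least 1 of the 3 lncRNAs. All 3 were detected in 12 cells, 2 in 10 cells and 1 in 3 cells, namely cells 5 and 21 with Malat1 alone and cell 25 with Neat1 alone. Malat1 was the highest of the 3 in 14 cells, Tug1 in 7 and Neat1 in 4 (13, 6 and 4 without cells 23 and 24). Neat1 exceeded Malat1 in 6 cells, and Tug1 exceeded Malat1 in 9. Since FPKM divides by length, these are comparisons per kilobase, and they inherit the limit that Malat1 shares a stretch with another gene. The adult titles also name poly(A)-enriched RNA, while Malat1 and the long form of Neat1 end in a triple helix. The part of this in the adult detection, levels and order of the 3 lncRNAs was not tested.

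The levels moved little with each other from cell to cell. Spearman's rho over the 25 cells was -0.043 for Malat1 and Neat1, the neighbours on chromosome 19. It was 0.13 for Malat1 and Tug1 and 0.0012 for Neat1 and Tug1. Both genes of a pair were detected together in 16, 16 and 14 cells. Values within a cell share 1 library and 1 total. With the number of rows detected in the cell, rho was 0.029 for Malat1, -0.17 for Neat1 and 0.14 for Tug1.

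Without cells 23 and 24 the picture was close to this. Detection was 20, 18 and 16 of 23 cells for Malat1, Neat1 and Tug1 (87.0%, 78.3% and 69.6%), and the mean log2 levels were 5.23, 3.99 and 4.06. The pairwise rho values were 0.036 for Malat1 and Neat1, 0.20 for Malat1 and Tug1, and -0.076 for Neat1 and Tug1. All 3 were then detected in 11 cells, 2 in 9 and 1 in 3.

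Ordered by mean log2 level, Malat1 stood 6th, Tug1 15th and Neat1 18th of the 6910 adult rows. The rows next to Malat1 were RP23-243M12.5 (5.78) and AI662270 (5.86) above it, and 2410006H16Rik (4.95) and 1700113A16Rik (4.84) below it. Tug1 lay between 2310031A07Rik (4.23) and RP23-448A11.8 (4.14) above and Gm13610 (3.92) and Meg3 (3.89) below. Gm13610 and Meg3 were also next above Neat1, followed below by Yam1 (3.76) and Gm12264 (3.72). Most of these are clone or predicted names, and none of the 3 lncRNAs differed from its neighbours in this order by as much as the SD over cells. Without cells 23 and 24 the places were 6th, 12th and 15th, and the rows on either side changed: Gm13610 and Meg3 no longer stood next to Tug1 or Neat1. The rows nearest Tug1 were then RP24-388D8.6 (4.50) and RP23-448A11.8 (4.06), and those nearest Neat1 were 1110038B12Rik (4.05) and Snhg12 (3.99).

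Other known lncRNAs give a scale for these adult levels. Gas5, a host of small nucleolar RNAs, was higher than all 3 on the log2 scale (7.16 ± 3.20, 22 of 25 cells). Meg3, the maternally expressed imprinted RNA, had a mean near that of Neat1 (3.89 ± 3.94) but was detected in 14 cells, and in cell 24 it reached 11027. The median of Meg3 was 17.2 with cells 23 and 24 and 2.07 without them, when its highest value was 506. Xist, the X-inactivation RNA, was detected in 19 cells, as many as Neat1, with a lower mean of 2.66 ± 1.71. Of 17 other nuclear or chromatin-linked lncRNAs listed, 6 were detected in at least 50% of the cells, as were 5 of 11 listed hosts of small nucleolar RNAs. Among all adult rows, 299 reached that share, and 29 rows were detected in more cells than Malat1, 91 in more than Neat1 and 115 in more than Tug1.

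The rows whose adult pattern was most like each lncRNA were mostly unnamed transcripts. Over 25 cells, Malat1 was nearest to 9530082P21Rik (rho 0.60), AI662270 (0.57) and the predicted gene Gm12703 (0.55). Neat1 was nearest to the predicted gene Gm26861 (0.58), the clone RP23-152I6.3 (0.43) and 2610035D17Rik (0.36). Tug1 was nearest to 1700123O12Rik (0.68), the predicted gene Gm26951 (0.57) and 2810404M03Rik (0.52). These are the top of 298 rows each, of which the central 95% lay between -0.48 and 0.42 for Malat1, -0.41 and 0.34 for Neat1, and -0.37 and 0.45 for Tug1. Without cells 23 and 24 the lists changed. For Malat1 they were AI662270 (0.65), RP24-458F14.4, the gene inside its span (0.58), and 9530082P21Rik (0.56). Gm2895 (0.42) took the third place for Neat1, and Gm11264 (0.60) the second for Tug1, with Gm26861 (0.59) and 1700123O12Rik (0.71) still nearest.

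The T1 pre-HSCs were measured with another library method, and in a table that lists protein-coding genes too. Their sample titles name Smart-Seq, which uses template switching, and those of the adult cells name poly(A)-enriched RNA-Seq. The adult titles thus name enrichment for poly(A), while the T1 titles do not say how far that method depends on poly(A) tails. Levels are therefore described within that table only, in RPKM, the same kind of unit for reads. Malat1 was present in all 21 cells at 1759 RPKM or more, Tug1 in most cells at 76.1 or less, and Neat1 in almost none.

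Malat1 ranged over KO cells from 1759 in cell 3 through a median of 7316 to 18473 in cell 9. Over wildtype cells it ranged from 3021 in cell 16 through a median of 8814 to 15591 in cell 15. The ranges overlap: 1 KO cell lay below all wildtype cells and 2 lay above them. Malat1 was between the 4th and the 123rd highest row of each KO cell and between the 4th and the 62nd of each wildtype cell. Its share of a cell's summed RPKM was 0.170 to 1.99% in KO and 0.286 to 1.71% in wildtype.

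Tug1 was listed at 0 in KO cells 1, 8 and 12, and its highest KO values were 76.1 in cell 10 and 59.4 in cell 11. The KO median was 10.6. Over wildtype cells it ran from 0 in cell 13 through a median of 7.52 to 39.7 in cell 18. The ranges overlap again, with only KO cells 10 and 11 outside the wildtype range. Tug1 was detected in 9 of 12 KO cells (75.0%, interval 42.8 to 94.5%) and 6 of 9 wildtype cells (66.7%, interval 29.9 to 92.5%).

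Neat1 was listed at 0 in 9 of 12 KO cells, and the others had 0.306 in cell 1, 0.545 in cell 5 and 0.0353 in cell 6. In wildtype cells it was at 0 in 7, at 0.420 in cell 16 and at 6.41 in cell 18. Neat1 was thus detected in 0 of 12 KO cells, which allows a share of up to 26.5%, and 1 of 9 wildtype cells (11.1%, interval 0.281 to 48.2%). An exact 0 in such a table can be a failed estimate. The adult cells, where Neat1 was detected in 19 of 25, differ from these in library method as well as in stage, and the 2 cannot be told apart.

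**Figure D2:**
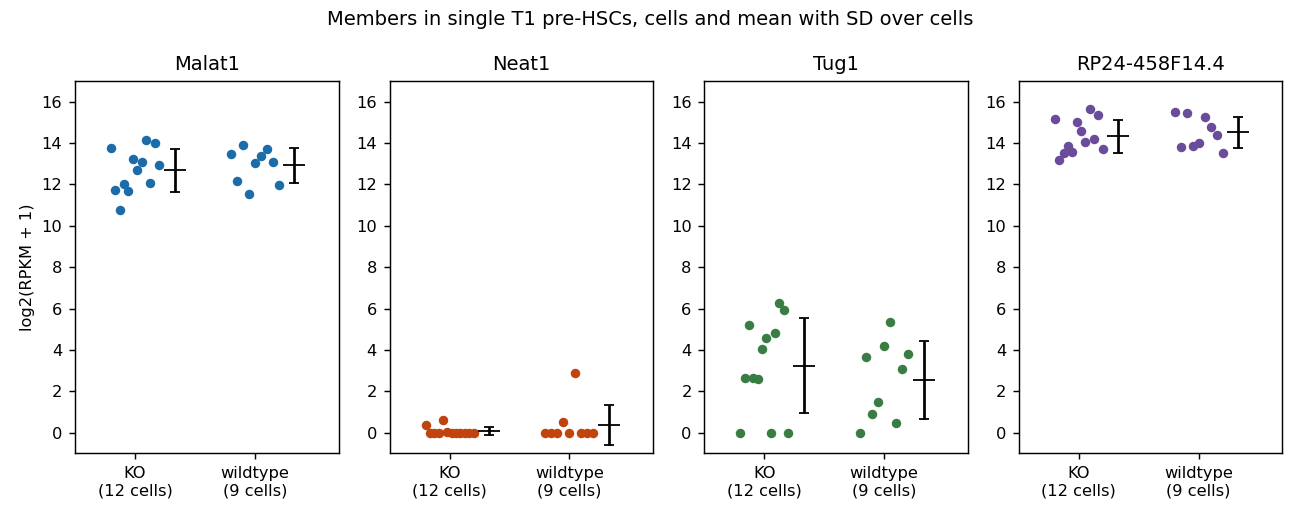
Log2(RPKM + 1) of Malat1, Neat1, Tug1 and RP24-458F14.4, the gene annotated inside Malat1, in 12 KO and 9 wildtype T1 pre-HSCs; each point is a cell and the bar is the mean with its SD over cells. Malat1 lies between 10.8 and 14.2 in every cell, while 9 KO and 7 wildtype cells have Neat1 at 0.

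Between the genotypes, none of the 3 lncRNAs differed by as much as 1 on the log2 scale, the size called large here. Malat1 had a mean log2(RPKM + 1) of 12.68 ± 1.04 (SD, n = 12) in KO and 12.92 ± 0.83 (n = 9) in wildtype cells, a KO minus wildtype difference of -0.24. Tug1 had 3.23 ± 2.29 and 2.55 ± 1.88, a difference of 0.69. Neat1 had 0.089 ± 0.20 and 0.38 ± 0.96, a difference of -0.29 that rests on cell 18: without it the difference was 0.025. For Malat1 and Tug1 the difference was smaller than the SD over cells in either genotype, and for Neat1 it was smaller than the wildtype SD. Among the 3867 genes detected in 50% or more of the KO cells or of the wildtype cells, 39.4% differed by 1 or more in size, 28.0% being lower in KO and 11.4% higher. Neither Malat1 nor Tug1 was among them, and Neat1 did not reach the filter. The median difference over these genes was -0.36, with quartiles of -1.11 and 0.35, so Malat1 lay near the middle and Tug1 above the upper quartile, with 54.6% and 82.4% of the genes lower. Without wildtype cell 18 the Tug1 difference was 1.04, and it was 1.10 without the 25% of cells with the fewest detected genes, which leaves 7 KO and 8 wildtype cells. Leaving out wildtype cell 13, where Tug1 was 0, gave 0.37. On the row labelled Malat1, adding the wildtype cell 19 that is out of step turned the Malat1 difference to 0.56.

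Malat1 was steady between cells to about the same degree as other genes found everywhere. Of 252 genes detected in all 21 cells, Malat1 was the 7th highest by mean log2 level in KO cells and the 8th in wildtype cells. Its SD was 1.04 in KO cells, against a median of 1.10 over those genes, and 121 of them had a smaller SD. In wildtype cells its SD was 0.83 against a median of 0.80, and 136 had a smaller one.

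In KO cells Malat1 was high where mitochondrial transcripts took a large share of the cell's total. The mitochondrial share ranged from 3.79 to 9.61% in KO cells, with Spearman's rho to Malat1 of 0.86 over 12 cells, and from 4.60 to 9.56% in wildtype cells, with rho of 0.22 over 9. Wildtype cell 16 had a mitochondrial share of 9.56% and the lowest wildtype Malat1. Malat1 also tended to be higher in cells with fewer detected genes, with rho of -0.57 in KO and -0.25 in wildtype cells. All of these are fractions of 1 total per cell, the difference in rho between the genotypes was not tested, and the part of cell quality in the Malat1 level was not tested. Tug1 had rho of -0.042 with the mitochondrial share in KO cells and -0.30 in wildtype cells.

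**Figure D3:**
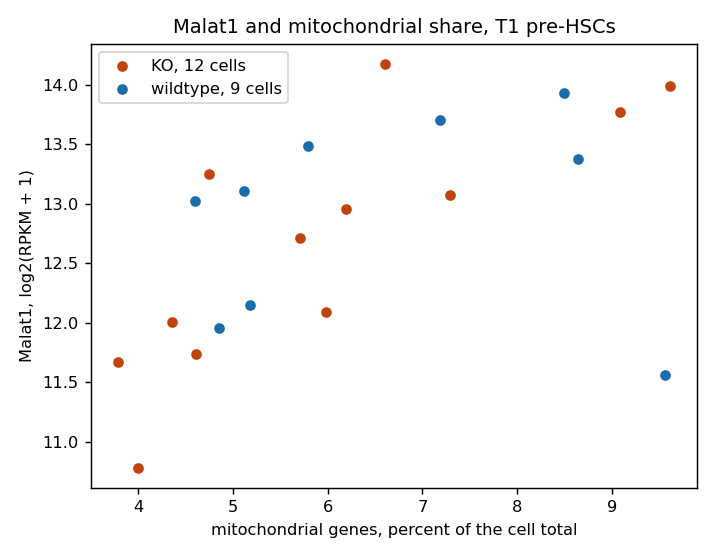
Malat1 as log2(RPKM + 1) on the vertical axis against the share of the cell's summed RPKM from mitochondrial genes, in percent, for 12 KO and 9 wildtype T1 pre-HSCs; each point is a cell. KO cells run from low left to high right (rho 0.86), and wildtype cell 16 sits at 9.56% with low Malat1.

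Between Malat1 and Tug1, rho was -0.007 over the 12 KO cells and -0.47 over the 9 wildtype cells. With wildtype cell 19 added the latter was -0.11. The genes most like Malat1 by the mean of the rho within each genotype were RP24-458F14.4 (0.88), the tubulin Tubb5 (0.60) and Fermt2, an adaptor of integrins (0.60). For Tug1 they were the zinc finger gene Zfp422 (0.83), Fam103a1, a subunit of the mRNA cap methyltransferase (0.78), and the mitochondrial ribosomal protein gene Mrpl45 (0.75). These stand at the top of 3863 genes, of which the central 95% lay between -0.59 and 0.28 for Malat1 and between -0.37 and 0.49 for Tug1. The lowest rho with Malat1 was that of Hnrnpr (-0.86, with -0.81 in KO and -0.92 in wildtype cells), an RNA-binding protein of the paraspeckle list, named after its value was seen.

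RP24-458F14.4, the gene inside Malat1, had higher RPKM than Malat1 in all 21 T1 cells. Its RPKM ran from 9421 to 50909 in KO and from 11909 to 45931 in wildtype, and it was the highest row of the cell in 6 KO and 6 wildtype cells. Its lowest place in any T1 cell was 7th. The ratio to Malat1 had a median of 3.09 in KO cells (range 1.69 to 6.61) and 2.99 in wildtype cells (range 1.99 to 4.97), and rho between them was 0.90 and 0.87. Its genotype difference was -0.19, beside -0.24 for Malat1. The ratio compares density per kilobase over 453 bases with that over the 6983 bases of Malat1.

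In adult HSCs the same pair was looser. RP24-458F14.4 was higher than Malat1 in 12 of 25 cells, with a ratio between 0.0207 and 3.01 where Malat1 was above 0 (median 0.884), and rho was 0.51. Without cells 23 and 24 it was higher in 12 of 23 cells, with a ratio between 0.0405 and 3.01 and a median of 1.10, on the other side of equality, and rho was 0.58. It was detected in 23 cells. Cell 25, with Malat1 at 0, had RP24-458F14.4 at 119, while cells 10 and 14 had both at 0. Weighting the gene by its span and adding it to Malat1, an alternative chosen after seeing the data, gave Malat1 in 92.0% of adult cells with a mean log2 of 5.53, and a T1 genotype difference of -0.23. Another gene inside the Malat1 span, Gm20417, was above 0 in adult cell 11 alone (1.35).

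**Figure D4:**
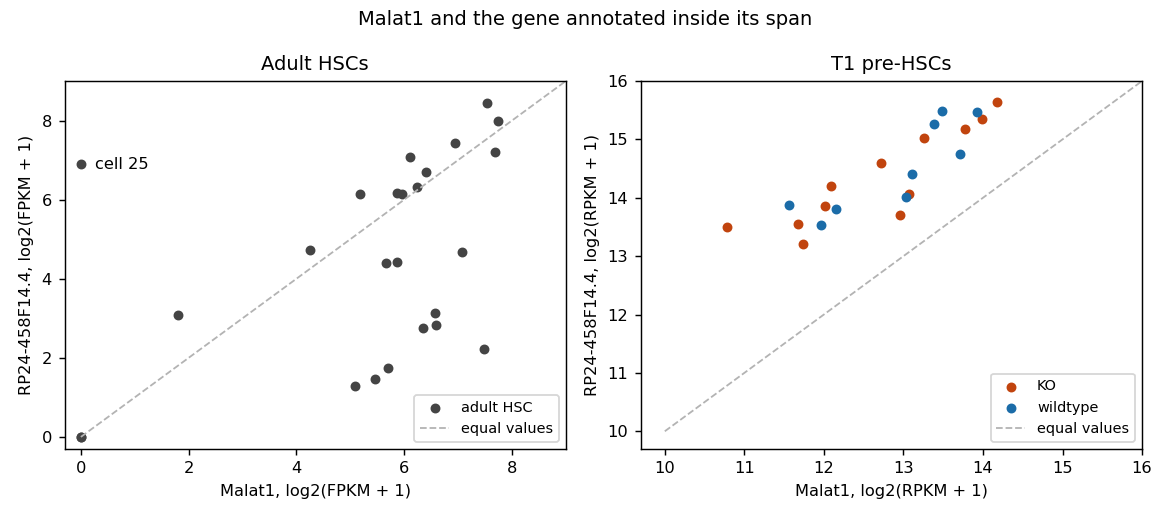
RP24-458F14.4 against Malat1 in 25 adult HSCs (left, log2 of FPKM + 1) and 21 T1 pre-HSCs (right, log2 of RPKM + 1), 1 point per cell, with a dashed line of equal values. All 21 T1 cells lie above the line, adult cells lie on both sides, and adult cell 25 has RP24-458F14.4 with Malat1 at 0.

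The proteins and genes tied to the 3 lncRNAs can be read in the T1 table alone, since the adult table lists none of them. Of 27 listed paraspeckle proteins, the partners of Neat1, 21 were compared. In KO cells 8 of these were lower by 1 or more and 0 higher, beside 28.0% lower and 11.4% higher over all compared genes. Their median difference was -0.69, beside -0.36 over all compared genes. The largest differences were those of Sfpq (-2.73, detected in 6 of 12 KO cells and 8 of 9 wildtype cells) and Hnrnpr (-2.37). Sfpq is 1 of the core proteins that bind Neat1. Nono, which pairs with Sfpq, was at -0.80 and Pspc1 at -0.69. Of the 27, 20 were detected in 50% or more of the KO cells and 21 in that share of the wildtype cells, and their summed level was 1698 to 4882 RPKM per KO cell and 2368 to 4018 per wildtype cell, beside Neat1 at 0 in most of these cells. Genes detected per cell ran from 1517 to 8408 in KO cells (median 3171.5) and from 2067 to 5716 in wildtype cells (median 4176). The part of this in the lower values was not tested.

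Of 26 nuclear speckle proteins, which share their compartment with Malat1, 23 were compared. In KO cells 6 were lower by 1 or more and 1 higher, near the 28.0% lower and 11.4% higher over all compared genes, with a median of -0.29. The largest differences were those of the splicing coactivators Srrm1 (-3.07) and Srrm2 (-2.57) and the splicing factor Srsf3 (-2.45). Srsf1, which Malat1 has been reported to bind, was the one higher (2.24, detected in 9 of 12 KO cells and 4 of 9 wildtype cells). Son, a core protein of the speckle, was at -0.29. Of 13 genes of RNase P, RNase Z and triple-helix binding, 6 were compared, 2 lower and 1 higher: Rpp21 (-2.10) and Pop4 (-1.63), subunits of RNase P, and Mettl16 (1.74), which binds the Malat1 triple helix. Their median was -0.073.

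The counts of the next lists stand beside 28.0% lower and 11.4% higher over all compared genes, and each list has few compared genes. Of 9 Polycomb partners reported for Tug1, 5 were compared and 3 were lower, with a median of -1.11. The 3 lower Polycomb partners were the methyltransferase Ezh2 (-1.96), the histone-binding Rbbp7 (-1.69) and the cofactor Jarid2 (-1.11). Among p53 pathway genes, 16 listed and 5 compared, the cell death gene Bax was lower (-2.79) and 0 were higher, with Cdkn1a, the cell cycle inhibitor, at 0.79 and Rrm2b at 0.51. Among 14 heat shock and hypoxia genes 5 were compared and 3 were lower: the chaperone Dnajb1 (-2.87), its regulator Hsf1 (-1.73) and the hypoxia factor Hif1a (-1.68), whose row stands in the same block ahead of the alphabetical order. Of 6 housekeeping genes 0 passed a size of 1, with a median of -0.16.

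Genes beside the members were sparse. Of 11 listed neighbours of Malat1 and Neat1, 2 were compared, Ehbp1l1 (0.90) and Frmd8 (0.84), and 0 differed by 1 or more. Of 6 listed neighbours of Tug1, Pik3ip1 was compared (1.81). Morc2a, which overlaps Tug1, was detected in 4 of 12 KO cells, in 2 of 9 wildtype cells, and was not compared.

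Some other lncRNAs had larger genotype differences than the 3 members. Of 15 nuclear or chromatin-linked lncRNAs listed, 4 were compared: H19 was lower (-4.78), Xist was higher (1.19), and Kcnq1ot1 was at -0.69. Xist was detected in 7 of 12 KO cells and 2 of 9 wildtype cells, and the part of embryo sex in its difference was not tested. Of 11 listed hosts of small nucleolar RNAs 5 were compared, with Snhg6 (-3.26) and Snhg3 (-1.49) lower and Gas5 (1.12) higher in KO cells. The spread of Gas5 was uneven, with an SD of 0.97 in KO and 2.43 in wildtype cells. No list was tested, and its counts are to be read against the shares of 28.0% lower and 11.4% higher over all compared genes.

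**Figure D5:**
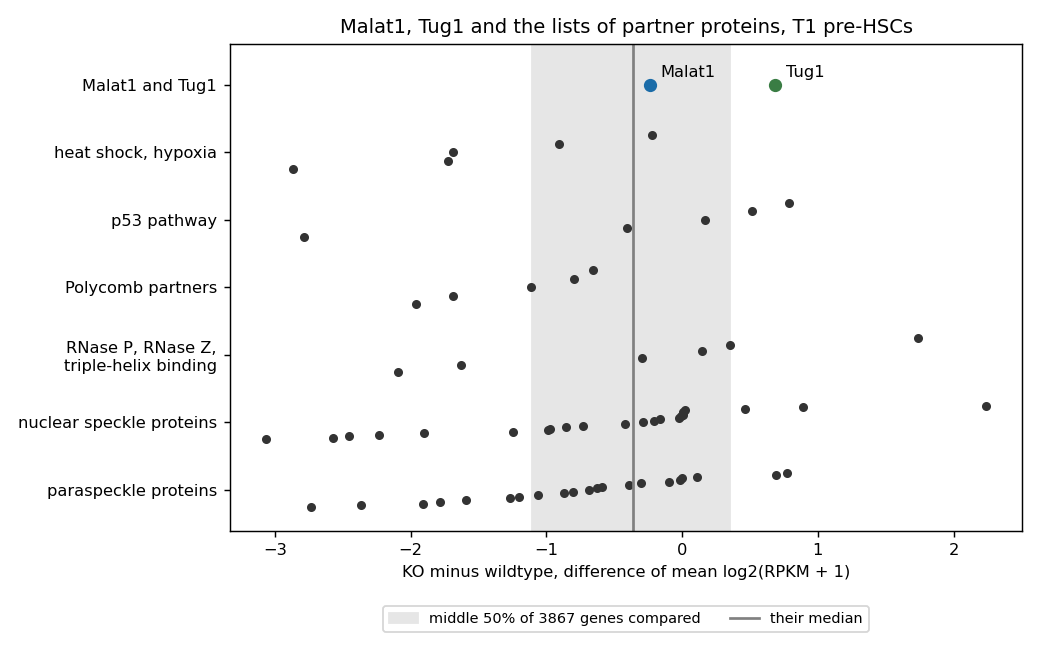
KO minus wildtype difference of mean log2(RPKM + 1) for Malat1 and Tug1 (top) and for each compared gene of 6 lists, 1 point per gene; the grey band holds the middle 50% of the 3867 genes compared and the line is their median. Malat1 (-0.24) lies inside the band and Tug1 (0.69) to its right.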

How the data were processed

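RNA was measured in single cells. The authors deposited RPKM for the T1 pre-HSCs, per the file name and labels, and a table of adult HSCs whose unit its header does not name; it was read as FPKM because the submitters' processing notes name Cufflinks 2.1.0, with build mm10. For the aligner, the annotation, the strand setting and the handling of multi-mapping reads, the answer is "not given in the sources used here". Both units are scaled to gene length and to the cell's mapped total, which lets a few dominant genes lower all others, and genes that overlap can share reads. Whole reads could not be recovered, so depth is unknown. The adult table holds mainly lncRNAs, so ranks and shares of the total refer to its own rows, and the adult and T1 tables were not compared by any test.

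A gene was called detected at a value of 1 or more. Levels are log2(value + 1), with a pseudocount of 1 that understates differences of low genes. T1 genes were compared where 50% or more of KO cells, or of wildtype cells, were at 1 RPKM or above. Differences of at least 1 on the log2 scale were called large, without a test. Groups and columns were taken from labels and cell numbers; 2 adult columns that carry 1 name were not used. Genes were named by rule: the 3 lncRNAs, the 3 rows most like each by Spearman's rho, 2 rows on each side in the adult order, and up to 3 compared genes per list with the largest differences, 1 of which is not reported here; others named are core proteins of a body, overlapping genes and familiar lncRNAs, chosen with values known. The lncRNAs and all lists were chosen with earlier results of these data known. Coordinates of the adult table, which start from 0, were raised by 1 at the start. Promoter windows came from RefSeq; entries matched for 2 of 3 genes. Alternatives were other pseudocounts (0.1 and 10), filters, detection at 5, equal totals, medians, Pearson's r, and leaving out cells. Python 3.11.15, pandas 2.3.3, numpy 2.4.6, scipy 1.17.1 and matplotlib 3.10.9 were used. The formulas for the mean difference and for Spearman's rho were tested on simulated data. That simulation had less spread over cells and higher low levels than these data, and it did not cover detection or ranks.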

Additional observations from a re-analysis of the deposited data

Results flagged for a closer look

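Neat1 in wildtype T1 cell 18, at 6.41 RPKM, lay far from the other 8 wildtype cells, whose highest value was 0.420. Its gap to the nearest cell, on the log2 scale, exceeded Dixon's 95% critical value for 9 cells; chance gives such a gap in about 1 in 20 groups of normally distributed values. That rate does not hold here, since 7 of the 9 values were 0 and a single cell above them is then marked almost by construction. The 3 lncRNAs were each examined at both ends. Cell 18 also had the highest wildtype Tug1 (39.7 RPKM), a Malat1 of 10656 RPKM and the most detected genes among wildtype cells (5716).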

How the results depend on the processing

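Of 239 alternative values over 21 results, 236 stayed within a limit set by the kind of result. The limit was the SD over cells for levels and differences, and the exact interval for shares of cells. For rho it was 1 over the square root of the number of cells less 1, and for the count of genes it was 1.5 times. These limits are wide: a Malat1 difference of 0.56 with cell 19, against -0.24, and Tug1 differences of 1.04 and 1.10, past the size called large, stayed within them. The count of genes differing by 1 or more was 1524 of 3867 (39.4%). It was 582 of 3867 (15.1%) with a pseudocount of 10 and 2435 of 14833 (16.4%) with no filter on low values. With a pseudocount of 0.1 it was 2196 of 3867 (56.8%), so the share that the lists are read against depends on the setting. Spearman's rho of Malat1 and Tug1 over wildtype T1 cells was -0.47 and became -0.11 with cell 19. Leaving out each cell in turn gave KO minus wildtype differences of -0.41 to -0.066 for Malat1, -0.34 to 0.025 for Neat1 and 0.37 to 1.04 for Tug1. It gave rho of -0.14 to 0.073 for Malat1 and Neat1 in adult cells, 0.040 to 0.24 for Malat1 and Tug1 in adult cells, -0.098 to 0.11 for Neat1 and Tug1 in adult cells, and, for Malat1 and Tug1 in T1 cells, -0.23 to 0.17 in KO and -0.60 to -0.31 in wildtype. The values come from 1 sample per group, so stability over cells says nothing about animals, and an absence of Neat1 is limited by unknown depth. No paired analysis was possible because the numbers only name cells, the genotypes share none, and no genotype difference comes from a test.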

Other observations

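In the column of wildtype cell 19, which was left out, the row named Malat1 held 28.9 and the row before it, Mal2, held 9063 RPKM. The row named Tug1 held 0 and the row before it, Tuft1, held 21.2. The row named Neat1 held 5.95e-05, and the 2 rows before it, Ndufv3 and Ndufv2, held 0.000342 and 1.59.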
